A study of Drosophila melanogaster and Drosophila simulans and Drosophila erecta with 10 samples.

Results

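Annotated antisense RNAs are transcripts that the Drosophila annotation classes as lying against another gene, and 246 of them had expression values in testes of Drosophila melanogaster, out of 7326 genes in all. They are all genes of the table whose FlyBase symbol starts with asRNA. The annotation names 503 such genes, and the other 257 were not analysed here. RNA-seq had been done on testes of adult flies aged 3 to 5 days and kept at 25 °C, with 2 libraries of miR-983 mutants (labelled miR-983KO) and 2 libraries of controls, which the series' design text calls biological replicates. The labels say neither which lesion removes the microRNA nor which stock served as control. Tables of D. simulans, D. erecta and D. sechellia from the same study were not used here.

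An antisense RNA is read from the strand opposite to another gene, so that part of its sequence is complementary to that gene's transcript. Such RNAs can pair with the sense transcript, interfere with its transcription, or give rise to endogenous small interfering RNAs when both strands are present. The testis is known for broad transcription of non-coding genes during spermatogenesis. The fly antisense RNAs described below carry only a CR number as their name, so the gene that each one overlaps is given beside it.

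Expression is given on the log2 scale as deposited, with 1 value per library. It is not stated whether gene length was taken into account, so an order of genes is an order of deposited values and not of transcript numbers. No value in the table lies under 1, and whether lower genes were removed before deposit is not stated. The sequencing depth is unknown. The table holds no row for miR-983 itself (0 rows), so its loss could not be checked here. Testis genes were well covered, with 11 of 14 germline markers measured, among them the sperm tail gene dj with 9.27 and 9.38 in mutants and 9.30 and 9.37 in controls. None of the 11 was called, and their log2 fold changes ran from -0.08 to 0.45 with a median of -0.005. The highest were mia with 0.45 ± 0.09 and ProtB with 0.25 ± 0.08 (SE; limma adjusted p = 0.0537 and 0.182). The germline markers vas, nos and bam, of early stages, had no row. Markers of other tissues were few: 2 of 6 fat body markers (NLaz and Tsf1), 1 of 6 accessory gland markers (Acp95EF), 2 of 5 muscle markers, 2 of 6 markers of the somatic testis and 0 of 3 neural markers had rows, while the fat body markers Yp1, Fbp1, Lsp2 and apolpp had none. Both fat body markers were higher in mutants, NLaz by 0.62 and Tsf1 by 0.80 on the log2 scale (limma adjusted p = 0.00771 and 0.0103). Their mean was 5.05 and 5.31 in mutants, against 4.51 and 4.43 in controls, and Acp95EF stood at 6.34 in mutant replicate 2, against 4.42 in mutant replicate 1 and 4.16 and 4.12 in controls. The 2 measured markers of the somatic testis had log2 fold changes of 0.35 (MtnA) and -0.23 (upd1; limma adjusted p = 0.0661 and 0.642). Whether these differences have a part in any value below was not tested. In whole testes, fewer cells of a type and less RNA per cell cannot be told apart.

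Most antisense RNAs were found low on this scale. Their mean over the 4 libraries ranged from 1.11 to 8.22 with a median of 2.80, where the median of all genes was 3.23. Of the 246, 62 lay under 2, 132 from 2 to 4, and 52 at 4 or above. The median antisense RNA had 2.81 and 2.81 in the mutant libraries and 2.81 and 2.79 in the control libraries, so the library medians lay close together.

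**Figure D1:**
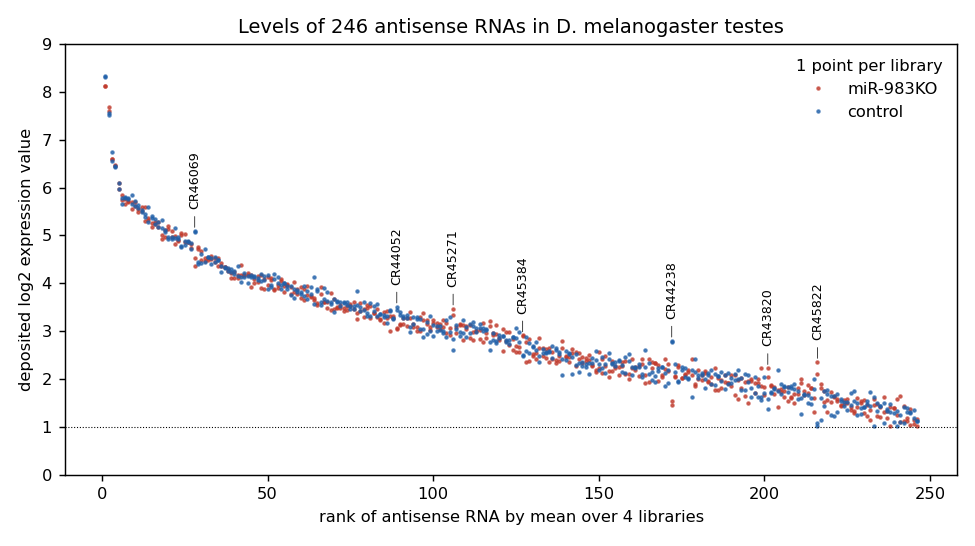
Deposited log2 value (vertical axis) of each of the 246 antisense RNAs in each library, ordered by the mean over the 4 libraries (horizontal axis), with red points for the 2 mutant libraries and blue points for the 2 control libraries. A few antisense RNAs reach values above 6 while 62 have a mean under 2, and the 7 labelled ones passed the test between genotypes.

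The 10 antisense RNAs with the highest values included several that lie within genes of known function. asRNA:CR45162, within CG9389, led with 8.12 and 8.13 in mutants and 8.31 and 8.33 in controls. asRNA:CR43885, within Dred, followed with 7.67 and 7.60 in mutants and 7.52 and 7.56 in controls. In both, the mutant and control libraries did not overlap, yet neither passed the test (log2 fold changes -0.20 ± 0.06 and 0.10 ± 0.06, SE; limma adjusted p = 0.222 and 0.612). asRNA:CR44370 lies within Fs, the fly follistatin gene, whose product binds activin-type ligands, and had 6.60 and 6.59 in mutants and 6.75 and 6.56 in controls. asRNA:CR42871, which covers CG6661 and part of CG6650, had 6.45 and 6.48 in mutants and 6.43 and 6.44 in controls. asRNA:CR45818, within the gene of the Hsp90 co-chaperone Cdc37, had 5.72 and 5.71 in mutants and 5.79 and 5.77 in controls. The log2 fold changes of these 3 ran from -0.07 to 0.03.

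asRNA:CR31144, the tenth in this order, lies within RpL3, which encodes a protein of the large ribosomal subunit, and overlaps the small nucleolar RNA genes snoRNA:Me18S-C1096 and snoRNA:Me18S-A425, guides for ribosomal RNA methylation. It had 5.61 and 5.70 in mutants and 5.72 and 5.62 in controls, and the genotypes overlapped. RpL3 had 5.33 and 5.43 in mutants and 5.42 and 5.31 in controls, overlapping likewise. The remaining 4 of the 10 were asRNA:CR46054 (within CG5388), asRNA:CR45943 (within CG13255), asRNA:CR46128 (overlapping the carboxylesterase gene alpha-Est3) and asRNA:CR45955 (overlapping CG32444). Their values ran between 5.56 and 6.10 over all libraries, with adjusted p from 0.642 to 0.999. None of the 10 passed the test (limma), and asRNA:CR45162 was the one with an unadjusted p under 0.05 (0.0158).

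Replicates of a genotype differed more for low antisense RNAs than for high ones. The median absolute difference between the 2 libraries was 0.12 in mutants and 0.11 in controls over all 246, against 0.10 in mutants and 0.08 in controls over all genes. For the 62 under a mean of 2 it was 0.18 in mutants and 0.18 in controls, and for the 52 at 4 or above it was 0.08 in mutants and 0.07 in controls. Genes of any kind between the lower and upper quartile of the antisense RNAs' levels had 0.11 in mutants and 0.09 in controls, and the 122 antisense RNAs in that range had 0.12 and 0.10.

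The 5 least repeatable antisense RNAs differed widely between libraries of 1 genotype. asRNA:CR46261, which overlaps CG34377, a gene without a row, had 1.45 and 1.59 in mutants and 1.01 and 1.62 in controls, so control replicate 1 was low. asRNA:CR46048, within fal, had 3.65 and 3.70 in mutants and 4.13 and 3.56 in controls, and control replicate 1 was high. asRNA:CR46099, which overlaps Kdsr, the gene of a reductase of sphingolipid synthesis, had 2.09 and 2.42 in mutants and 1.63 and 2.19 in controls. Here the overlapping gene moved the same way between the controls, since Kdsr had 2.08 and 2.20 in mutants and 1.82 and 2.12 in controls. asRNA:CR45268, within CG43325 and CG43326, had 1.65 and 1.11 in mutants and 1.11 and 1.24 in controls. asRNA:CR43478, within CG14662, had 2.41 and 1.93 in mutants and 2.10 and 2.34 in controls. Mutant replicate 1 was the higher of the 2 mutant libraries in both, and also in CG43325 (1.49 against 1.06 in mutant replicate 2), CG43326 (1.58 against 1.15) and CG14662 (2.30 against 1.85). None of these 5 antisense RNAs passed the test with all 4 libraries (limma adjusted p from 0.527 to 0.953). In asRNA:CR46099, asRNA:CR46048 and asRNA:CR46261 the wider gap lay between the controls. Leaving out 1 control removes that gap from the spread, so such a fit cannot decide whether these 3 differ between genotypes. Their log2 fold changes were 0.63, -0.46 and 0.51 when control replicate 1 alone was kept. Keeping control replicate 2 alone gave 0.07, 0.12 and -0.10.

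The comparison of mutants with controls asked which antisense RNAs differ when miR-983 is missing. Of 246, 7 changed, 4 higher and 3 lower in mutants (limma, Benjamini-Hochberg adjusted p under 0.05 over all 7326 genes, 2 libraries per genotype). That is 2.85% of them, beside 2.28% of all genes, of which 1.05% were higher and 1.23% were lower. The count was 4 without mutant replicate 1 (all genes 1.92%), 5 without mutant replicate 2 (1.61%), 13 without control replicate 1 (4.15%) and 17 without control replicate 2 (3.54%), so the share of all genes called moved as well. In each of these fits the lone library of a genotype is assumed to vary like the pair of the other genotype, which alone gives the spread, and so for every call given below as lost or gained without a library. An unadjusted p under 0.05 was reached by 54 (22.0%), beside 12.7% of all genes. Both mutant libraries lay on one side of both controls in 115 (46.7%), beside 42.3% of all genes, with 48 above, beside 17.9% of all genes, and 67 below, beside 24.3%. A change of at least 2-fold on the deposited scale was seen in 2 antisense RNAs, beside 0.45% of all genes. The median log2 fold change was -0.04 over the antisense RNAs and -0.01 over all genes, and the median absolute log2 fold change was 0.12 and 0.07. Among the 359 long non-coding RNA genes without an antisense annotation, 36 were called (10.03%), and among 6478 protein-coding genes 115 (1.78%). These shares were not tested against each other. The authors' deposited table marks 5 of the 246 as past p 0.05 by DESeq2 (2.03%), beside 1.65% of all genes.

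**Figure D2:**
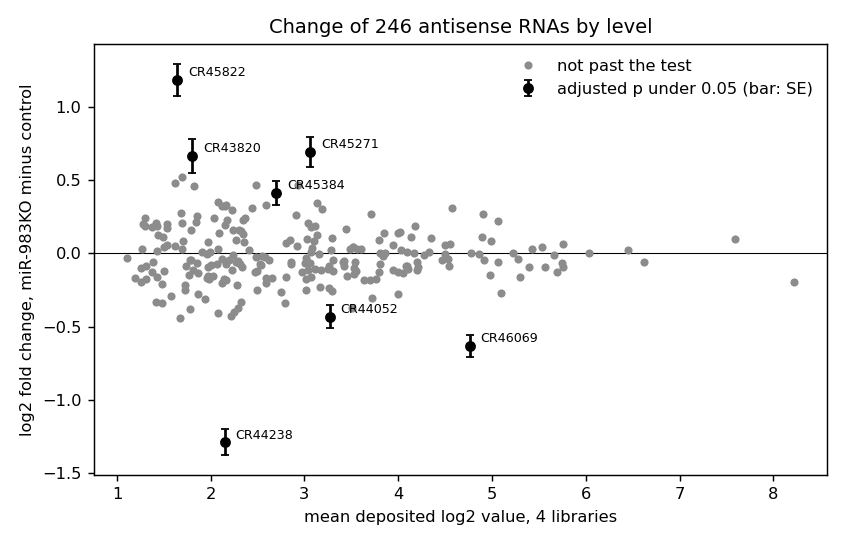
Log2 fold change of mutants minus controls (vertical axis) against the mean deposited log2 value over the 4 libraries (horizontal axis) for the 246 antisense RNAs, with grey points for those not past the test and black points with SE bars for the 7 that passed. The 2 largest changes, of asRNA:CR45822 upward and asRNA:CR44238 downward, belong to antisense RNAs with a mean near 2.

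asRNA:CR44238 fell most. It had 1.46 and 1.54 in mutants and 2.78 and 2.80 in controls, far apart beside the gap within either genotype. The log2 fold change was -1.29 ± 0.09 (SE; limma adjusted p = 0.000725). It overlaps CG31269, which had 1.23 and 1.36 in mutants and 2.60 and 2.58 in controls, a log2 fold change of -1.29 ± 0.10 (adjusted p = 0.000842). Both passed the test, and the 2 log2 fold changes were equal to 2 decimals. The spans share 737 bases, 83.8% of the antisense RNA's span. Whether counting used strand is not stated, so the 2 calls may rest on the same reads, which was not tested.

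asRNA:CR46069 also fell, with 4.36 and 4.53 in mutants and 5.06 and 5.09 in controls. All mutant values lay under all control values, by a log2 fold change of -0.63 ± 0.07 (limma adjusted p = 0.00577). Its overlapping gene CG3528 had 4.51 and 4.68 in mutants and 5.22 and 5.26 in controls (-0.64 ± 0.07, adjusted p = 0.0051). In both genes mutant replicate 1 was the lowest library, and both passed the test.

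asRNA:CR44052, within Gba1b, which encodes a glucocerebrosidase of the lysosome, was lower by a smaller step. It had 3.07 and 3.04 in mutants and 3.51 and 3.45 in controls (-0.43 ± 0.08, limma adjusted p = 0.0321). Gba1b had 1.34 and 1.30 in mutants and 1.69 and 1.72 in controls, and its log2 fold change of -0.38 ± 0.09 did not pass (adjusted p = 0.1). The genotypes did not overlap in either gene. The call of asRNA:CR44052 was lost without mutant replicate 1 (adjusted p = 0.0667), without mutant replicate 2 (0.089) and without control replicate 1 (0.0608).

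asRNA:CR45822, within CTCF, rose most. CTCF encodes a zinc-finger protein that binds insulators and borders of chromatin domains. The antisense RNA had 2.36 and 2.11 in mutants and 1.08 and 1.02 in controls, so the controls sat next to the lowest value the table holds. Its log2 fold change was 1.18 ± 0.11 (limma adjusted p = 0.00197), and 0.89 with a pseudocount of 1 added on the linear scale, which takes it under a 2-fold change. CTCF had 1.44 and 1.31 in mutants and 1.03 and 1.12 in controls, and its log2 fold change of 0.29 ± 0.10 did not pass (adjusted p = 0.261). Both genes were higher in both mutant libraries, and the difference between their fold changes was not tested.

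asRNA:CR45271 rose by 0.69 ± 0.10, with 3.47 and 3.35 in mutants and 2.83 and 2.60 in controls (limma adjusted p = 0.0146). It overlaps CG42700, a gene without a row, so no value of an overlapping gene stands beside it. The call was lost without mutant replicate 1 (adjusted p = 0.0512).

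asRNA:CR43820 lies within qtc, quick-to-court, a gene known for male courtship behaviour. It had 2.05 and 2.23 in mutants and 1.36 and 1.58 in controls, with no overlap, and its log2 fold change was 0.67 ± 0.11 (limma adjusted p = 0.0294). qtc had 2.75 and 2.68 in mutants and 2.72 and 2.69 in controls, so its genotypes overlapped (0.01 ± 0.08, adjusted p = 0.986). The call of asRNA:CR43820 was lost without mutant replicate 2 (adjusted p = 0.103).

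asRNA:CR45384, which overlaps nearly all of CG3288, had 2.91 and 2.91 in mutants and 2.51 and 2.48 in controls. The replicates nearly coincided, and the log2 fold change was 0.41 ± 0.08 (limma adjusted p = 0.0494). CG3288 had 2.87 and 2.87 in mutants and 2.49 and 2.49 in controls (0.38 ± 0.08, adjusted p = 0.0651). Leaving out any 1 library ended the call of asRNA:CR45384 (adjusted p from 0.0513 to 0.122).

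**Figure D3:**
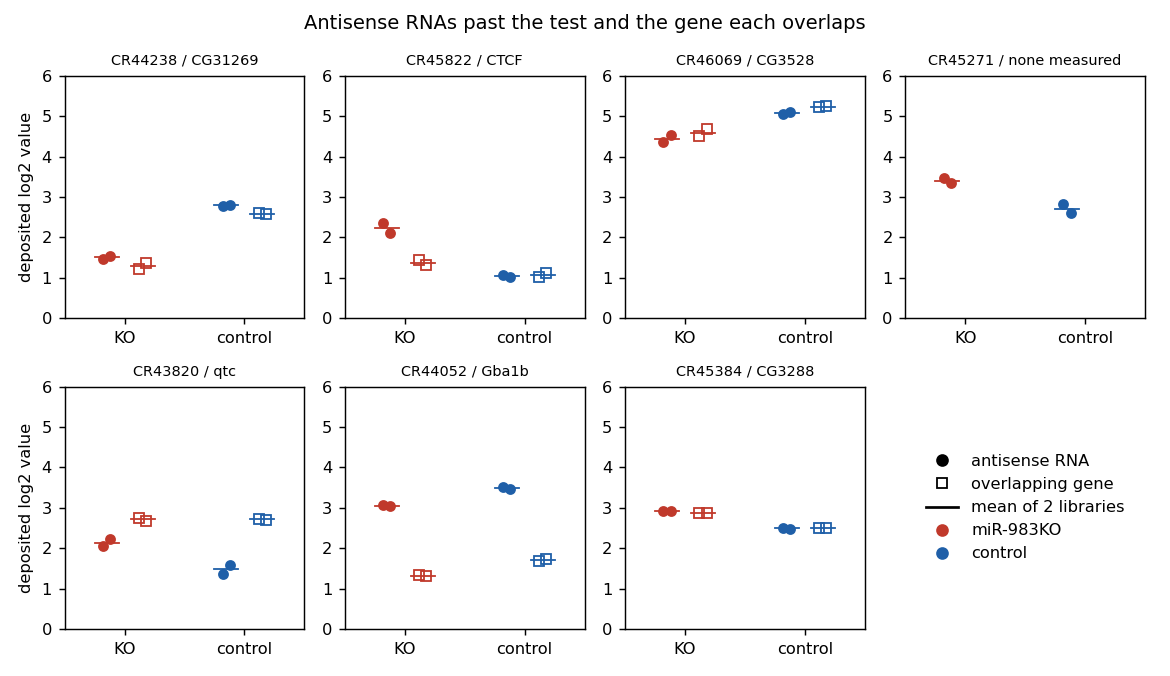
Deposited log2 values of the 7 antisense RNAs past the test (filled circles) and of the gene that 6 of them overlap (open squares; CG42700, which asRNA:CR45271 overlaps, has no row), with mutants in red on the left and controls in blue on the right of each panel, 1 symbol per library and a line at the mean of 2. The log2 fold changes of antisense RNA and gene are -1.29 and -1.29 in the panel with CG31269, 1.18 and 0.29 in that with CTCF, and 0.67 and 0.01 in that with qtc.

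The next 5 by p missed the threshold. All 5 passed with the replicate number as a block, and 3 of them passed in another alternative as well. asRNA:CR46133 and asRNA:CR45896 passed after median-centring (limma adjusted p = 0.0456 and 0.0473) and with a minimum mean of 2 (0.0499 and 0.0499). Without control replicate 1, asRNA:CR45896 (0.00224) and asRNA:CR44907 (0.0417) passed. asRNA:CR46133, within CG2017, had 4.76 and 4.71 in mutants and 4.44 and 4.40 in controls (0.31 ± 0.06, limma adjusted p = 0.0508). asRNA:CR45896, overlapping CG7546, had 3.11 and 3.21 in mutants and 2.78 and 2.61 in controls (0.47 ± 0.09, adjusted p = 0.0508), and the authors' deposited table marks it as past p 0.05 by DESeq2. In both, the mutant libraries lay above the controls. asRNA:CR45686, overlapping CG42676, had 5.06 and 5.01 in mutants and 4.78 and 4.75 in controls (adjusted p = 0.0753). asRNA:CR44907, within bwa, the gene of an alkaline ceramidase, had 1.99 and 2.11 in mutants and 2.39 and 2.52 in controls (adjusted p = 0.101), while bwa itself had 1.88 and 1.96 in mutants and 1.87 and 1.75 in controls.

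asRNA:CR45367, the other one of these 5, shares its gene with a second antisense RNA. Both overlap Ent1, which encodes a nucleoside transporter, and Ent1 had 3.18 and 3.22 in mutants and 3.35 and 3.39 in controls (-0.17 ± 0.07, limma adjusted p = 0.415). asRNA:CR45367 had 3.58 and 3.54 in mutants and 3.85 and 3.88 in controls (-0.30 ± 0.07, adjusted p = 0.0859). asRNA:CR45366 had 2.14 and 2.18 in mutants and 2.03 and 2.01 in controls (0.14 ± 0.09, adjusted p = 0.607). The 2 antisense RNAs of 1 gene thus lay on opposite sides of 0, and neither passed.

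The genes on which the antisense RNAs lie were measured in most cases. All 246 overlap at least 1 annotated gene, and 198 overlap a gene with its own row, which gives 221 pairs with 219 genes. All but 2 of these pairs are with protein-coding genes. The annotation used gives gene spans without strand, and no label or header states if counting used strand. Reads from an antisense RNA and from its overlapping gene can then not be told apart where their spans coincide. In 2 pairs the values were identical in all 4 libraries: asRNA:CR43465 and Ucp4B, a gene of the mitochondrial uncoupling protein family, each had 4.50 and 4.56 in mutants and 4.41 and 4.53 in controls, and asRNA:CR44304 and CG43190 each had 2.71 and 2.97 in mutants and 2.82 and 2.72 in controls. In both of these pairs the antisense RNA covers the whole span of the gene (100%).

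Across the 221 pairs, the log2 fold changes of antisense RNA and gene moved together (Pearson's r = 0.77, Spearman's rho = 0.73), and 168 pairs (76.0%) had the same sign. All points share the same 4 libraries, and genes are not independent replicates. The relation was 0.71 by Pearson's r over the 215 pairs whose antisense RNA did not pass the test. It differed with the share of the gene's span that the antisense RNA covers. Pearson's r was 0.48 in 38 pairs with up to 10% covered, 0.58 in 63 pairs with over 10% and up to 25%, 0.75 in 35 pairs with over 25% and up to 50%, and 0.96 in 85 pairs with over 50%. The last value includes the pairs of asRNA:CR44238 and asRNA:CR46069, which lie far from the rest, and Spearman's rho in those 85 pairs was 0.92. The median absolute gap between the 2 log2 fold changes was 0.08 in the pairs with least overlap and 0.02 in those with most. These bounds were chosen after the data were seen.

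**Figure D4:**
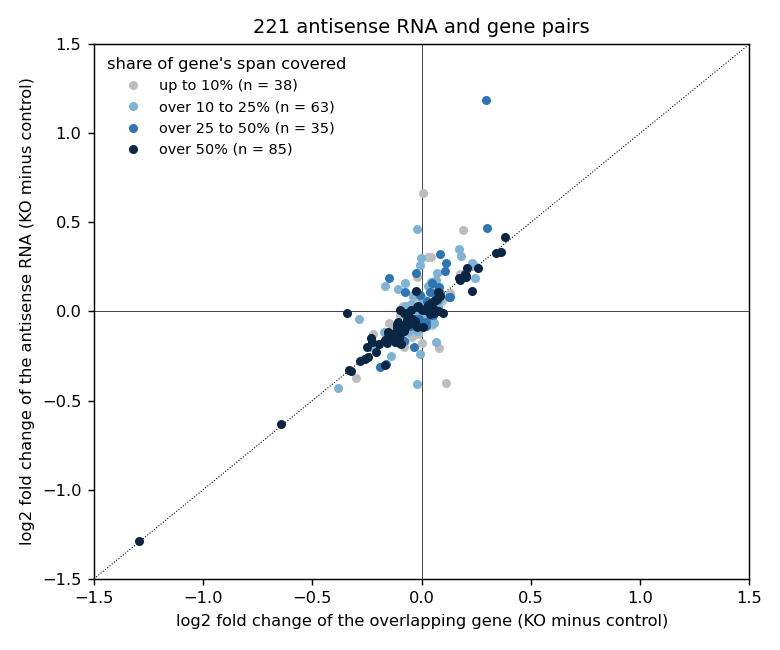
Log2 fold change of the antisense RNA (vertical axis) against that of the gene it overlaps (horizontal axis), both mutants minus controls, in 221 pairs shaded by the share of the gene's span that the antisense RNA covers. Pairs with over 50% covered lie along the dotted line of equal change (Pearson's r = 0.96), and pairs with up to 10% covered scatter around it (0.48).

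A like relation was seen for the differences between replicates of 1 genotype. The difference of mutant replicate 1 minus mutant replicate 2 correlated between antisense RNA and gene with Pearson's r = 0.72, and that of the controls with 0.62, over 221 pairs. In pairs with over 50% of the gene covered these were 0.89 in mutants and 0.90 in controls, and in pairs with up to 10% covered 0.40 and 0.09. For comparison, each antisense RNA was set beside the nearest measured gene that overlaps neither it nor its overlapping genes. Over these 246 pairs Pearson's r was 0.16 for the log2 fold change, -0.05 for the difference between mutants and 0.13 for that between controls. In 1317 overlapping pairs of protein-coding genes it was 0.35, 0.45 and 0.36. Their log2 fold changes had the same sign in 69.0%, with a median absolute gap of 0.049. These were 76.0% and 0.047 in the 221 antisense pairs, and 54.5% and 0.147 in the pairs with the nearest gene. The protein-coding pairs were taken at any overlap and were not matched for the share of the span covered.

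**Figure D5:**
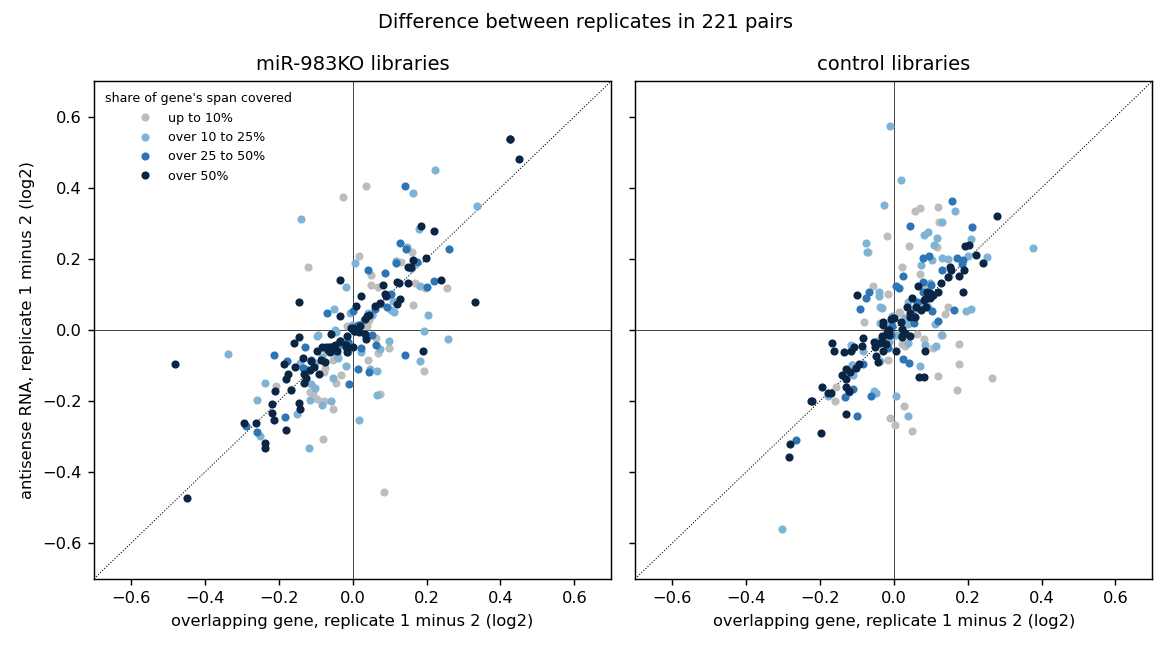
Difference of replicate 1 minus replicate 2 on the log2 scale of the antisense RNA (vertical axis) against that of the gene it overlaps (horizontal axis), for mutant libraries on the left and control libraries on the right, in 221 pairs shaded as in the plot of fold changes. The points with over 50% of the gene covered follow the dotted line of equality in both genotypes (Pearson's r = 0.89 in mutants and 0.90 in controls).

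Of the 219 overlapping genes 2 were called, CG31269 and CG3528, both lower (0.913%, beside 2.28% of all genes), and their antisense RNAs are among the 7. Of the 6 pairs whose antisense RNA was called, 2 thus had both called. The 5 pairs with the widest gap between the 2 log2 fold changes were named after their values were seen. They begin with asRNA:CR45822 and CTCF, asRNA:CR43820 and qtc, and asRNA:CR44907 and bwa. asRNA:CR45738 had 2.64 and 2.79 in mutants and 2.43 and 2.08 in controls (0.46 ± 0.13, SE), while its gene Sqor, a mitochondrial oxidase of hydrogen sulfide, stood at -0.02 ± 0.09. asRNA:CR45152 had 1.90 and 1.85 in mutants and 2.42 and 2.14 in controls (-0.41 ± 0.11), while qkr58E-2, of the quaking-related RNA-binding proteins, stood at -0.02 ± 0.09. In these 5 the antisense RNA covers between 7.18% and 28.1% of the gene's span, the differences between the 2 fold changes were not tested, and neither gene of the last 3 pairs passed the test.

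Antisense RNAs overlap genes of several basic processes. Here and below, against means an overlap of spans by at least 1 base, with the strand not checked. The following are examples by the known role of the overlapping gene, picked after the values were seen, and no full list of any role. Of 3 examples against ribosomal protein genes (RpL3, RpL37A and RpS9), the log2 fold changes ran from -0.07 to 0.00, and those of the 3 genes from -0.06 to 0.07. Of 3 examples against coat proteins of vesicles leaving the endoplasmic reticulum (Sec24AB, Sec24CD and Sec31), they ran from -0.13 to -0.07, and those of the genes from -0.22 to 0.05. None of these passed the test. The 2 against the aminoacyl-tRNA synthetase genes AspRS and GluProRS had -0.02 and -0.16.

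Among genes of chromatin and transcription, asRNA:CR45822 against CTCF passed the test, with values given above. Further examples lie against Chro, a chromodomain protein of the spindle and of polytene interbands, Nap1, a histone chaperone, Cap-H2, a condensin subunit, Taf3, a subunit of TFIID, and woc, a zinc-finger gene. The one at Chro, asRNA:CR45968, shares only 22 bases with Chro, while 98.4% of its span lies in CG11109. The antisense RNAs of these 5 genes had log2 fold changes from -0.17 to 0.09, and asRNA:CR45970 against Ssl1, a TFIIH subunit, had -0.23 ± 0.08 (limma adjusted p = 0.261). asRNA:CR45926 against Nap1 had 4.97 and 5.10 in mutants and 4.97 and 4.93 in controls.

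Of 6 examples against cytoskeletal genes (alpha-Spec, hts, tacc, Septin2, parvin and Frl), none passed, and the log2 fold changes ran from -0.37 to 0.18. The lowest was asRNA:CR46067 against Frl, a formin, with 3.26 and 3.38 in mutants and 3.85 and 3.55 in controls (limma adjusted p = 0.159). Frl itself had 2.81 and 2.62 in mutants and 3.08 and 2.95 in controls (adjusted p = 0.223). Both lay lower in both mutant libraries. Among signalling genes, asRNA:CR44045 against Axn, the scaffold of the Wnt pathway's destruction complex, had 3.40 and 3.28 in mutants and 3.10 and 2.98 in controls (adjusted p = 0.15), while Axn had 1.26 and 1.06 in mutants and 1.16 and 1.07 in controls. Those against chico, Csk and CYLD had log2 fold changes from -0.09 to 0.03. The 2 against the cell death gene grim and the mitochondrial quality control gene park had -0.10 and -0.12.

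Genes with a role in testis or in small RNA production were among those overlapped. asRNA:CR44235 against d-cup, one of the genes transcribed after meiosis, had 4.53 and 4.48 in mutants and 4.55 and 4.54 in controls, and d-cup had 4.27 and 4.27 in mutants and 4.28 and 4.28 in controls. asRNA:CR44599 against loqs, which encodes a double-stranded RNA-binding partner of Dicer, had 5.59 and 5.30 in mutants and 5.44 and 5.38 in controls, and loqs had 5.28 and 5.10 in mutants and 5.24 and 5.03 in controls. asRNA:CR43481 against the small heat-shock protein gene Hsp67Ba had 1.93 and 1.97 in mutants and 2.08 and 2.12 in controls. None of the 3 antisense RNAs and none of the 3 genes passed the test (limma adjusted p of at least 0.582).

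Genes of the machinery that acts on double-stranded or unstable nuclear RNA were read beside them. Of 6 measured genes of the endogenous small interfering RNA pathway and of double-stranded RNA binding (Dcr-2, AGO2, r2d2, loqs, Hen1 and blanks) 0 were called, and of 7 measured subunits and helpers of the nuclear exosome (Rrp6, Mtr4, Csl4, Ski6, Mtr3, Rrp4 and Rrp40), which degrades RNA from the 3′ end, 0 were called (limma, beside 2.28% of all genes). An unadjusted p under 0.05 was reached by 2 of the 13, blanks and Rrp4, beside 12.7% of all genes. blanks, a double-stranded RNA-binding protein of the male germline, had 5.36 and 5.43 in mutants and 5.60 and 5.68 in controls (-0.25 ± 0.06, adjusted p = 0.112). Rrp4 had 2.99 and 3.08 in mutants and 2.80 and 2.68 in controls (0.30 ± 0.09, adjusted p = 0.166). In both the genotypes did not overlap.

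Marks for predicted targets of miR-983 in the authors' deposited table (TargetScan for both arms, PITA for the 5p arm) are found on none of the 246 antisense RNAs and on none of the 359 other long non-coding RNA genes (0 of each), so the marks say nothing of antisense RNAs in particular. Of the 219 overlapping genes, nearly all of them protein-coding, 40 carry at least 1 such mark (18.3%), beside 12.8% of protein-coding genes, and the shares were not tested against each other.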

How the data were processed

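RNA-seq of D. melanogaster testes was analysed in 4 libraries. The authors deposited log2 expression values, 1 column per library, with a log2 fold change that matches the difference of the genotype means within 1.5e-06. The quantity under the logarithm, the scaling and the read counting are not stated by any label or header. Per the file headers, the authors also deposited yes or no marks for predicted miR-983 targets (TargetScan, PITA) and for a DESeq2 p under 0.05. TopHat is named in the submitters' processing notes. Depth is unknown. Columns left unmapped numbered 0.

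Symbols were taken from a table pairing FlyBase identifiers with names (7195 of 7326 matched). Overlaps of at least 1 base were taken from gene spans of the assembly Release 6 plus ISO1 MT, which the files do not name, so no coordinates are given. That table holds no strand, so the planned restriction to the opposite strand was replaced by overlap on either strand.

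All 7326 genes were tested with limma 3.58.1 in R 4.3.3 (empirical Bayes trend, two-sided, no filter, Benjamini-Hochberg adjustment, threshold 0.05). The fit was checked on simulated data with log2 changes of 1 and 2 in either direction and noise set by level alone. Changes smaller than 1 were not covered by that check. Each p-value sets the difference of genotype means against a spread from 2 libraries per genotype, drawn toward a trend over all genes. Named were the antisense RNAs past the threshold, the 10 highest, the 5 with the largest replicate difference, the next 5 by p, and their overlapping genes; others named were chosen after their values were seen. Members and lists were chosen with earlier results of these data known. Summaries and correlations were computed in Python 3.11.15. Alternatives were fits without the trend, median-centring, quantile normalization, a minimum mean of 2, a pseudocount of 1, a replicate block and leaving out each library.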

Additional observations from a re-analysis of the deposited data

How the results depend on the processing

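The number of antisense RNAs past the threshold, 7 of 246, stayed within 1.5 times of that value without the trend, after median-centring (9) or quantile normalization, with a minimum mean of 2 and with a pseudocount of 1, and ran from 4 to 17 when 1 library was left out. With the replicate number as a block, 26 antisense RNAs passed (13 higher and 13 lower), as did 10 overlapping genes and 1 of the 13 machinery genes, which was lower, beside 6.87% of all genes. All 5 antisense RNAs next by p passed with the block (adjusted p from 0.00602 to 0.022). The labels give replicates of the 2 genotypes the same numbers and do not say if those of 1 number were handled together. With 2 pairs, the differences of replicate 1 minus 2 correlated between genotypes with 0.147 over all genes. With a minimum mean of 2, 7 antisense RNAs passed, but only 5 of them were among the 7 of the fit over all genes. asRNA:CR45822 and asRNA:CR43820 lay under that mean and were not in this fit. Of the overlapping genes, 1 of 159 passed in it, CG3528, while CG31269 also lay under that mean and was not in it. asRNA:CR44238, asRNA:CR45822 and asRNA:CR46069 kept their calls in every alternative that held them. asRNA:CR46054, near 0, changed sign after median-centring (0.012) and quantile normalization (0.013). Leaving out 1 library turned the sign of these log2 fold changes, none of them past the threshold with all 4 libraries, with the lowest and highest value given: CG14662 (-0.29 to 0.16), CG43325 (-0.017 to 0.41), CG43326 (-0.011 to 0.41), CG5388 (-0.044 to 0.081), Cdc37 (-0.0022 to 0.0062), Fs (-0.15 to 0.035), RpL3 (-0.040 to 0.065), asRNA:CR31144 (-0.063 to 0.035), asRNA:CR43478 (-0.29 to 0.19), asRNA:CR44370 (-0.15 to 0.034), asRNA:CR45268 (-0.068 to 0.47), asRNA:CR46048 (-0.46 to 0.12), asRNA:CR46054 (-0.063 to 0.063), asRNA:CR46261 (-0.096 to 0.51), qtc (-0.030 to 0.045), snoRNA:Me18S-A425 (-0.055 to 0.13) and snoRNA:Me18S-C1096 (-0.30 to 0.18). The correlation of fold changes over pairs of antisense RNA and gene ran from 0.74 to 0.78 in the alternatives, a check chosen after seeing the data. The cause of these shifts was not tested. Overlap restricted to the opposite strand was not run. Unknown depth leaves the precision of low values unstated.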
